A study of Mus musculus with 13 samples.

Results

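The Mef2 loci are the genome windows around Mef2a, Mef2c and Mef2d, 3 of the genes that encode the MEF2 transcription factors. They were followed through 13 lists of CUT&RUN peaks (an assay in which a nuclease, tethered by an antibody, releases the DNA around a bound protein). The members were chosen by position alone, in build GRCm39: chr7:66830000-67073000 for Mef2a (243 kb), chr13:83600000-83866000 for Mef2c (266 kb) and chr3:88000000-88130000 for Mef2d (130 kb). Any peak that touched a window was counted, which gave 93 of 178951 peaks, 30 at Mef2a, 40 at Mef2c and 23 at Mef2d. Merged wherever intervals shared at least 1 bp, the peaks of the 12 HA and IgG lists formed 43 of 71864 regions, 12, 22 and 9 in the same order. At the window edges, the last peak inside Mef2a lay 1.20 kb from the border with a summit pileup of 10 fragments, and the first outside it 2.59 kb beyond with 9 fragments. Just before the start of the Mef2c window, at 0.641 kb, lay a peak of 5 fragments, and the first inside it had 11 fragments at 7.11 kb.

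All cells were mouse embryonic fibroblasts that carried Pax7-CreERT2, Rosa26-LSL-tdTomato and CAG-rtTA3, transduced with a lentivirus for doxycycline-inducible Myf6 that carries HA tags. The rtTA3 protein, made from the CAG promoter, switches on the viral promoter when doxycycline is present, so the bound protein is an introduced, overexpressed one. Cells spent 24 h in iMPC medium without doxycycline (uninduced), with doxycycline at 2 µg/mL (+Myf6), or with that dose and the F/R/C compounds (+Myf6+F/R/C), which were CHIR99021 at 3 µM and RepSox and Forskolin at 5 µM each. CHIR99021 blocks the kinase GSK3, RepSox blocks TGF-β receptor signalling, and Forskolin raises cyclic AMP. Each treatment had 2 libraries with an antibody against HA and 2 with control IgG, and 1 library of +Myf6+F/R/C cells was made for H3K27me3, the histone methylation that Polycomb complexes lay down at silenced genes. Whether replicates came from separate cultures is not stated, so spreads between them may be technical. Peak lists hold no expression values, so the fibroblast label could not be checked against marker genes here.

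MEF2 proteins are DNA-binding factors with a MADS box that recognise an A/T-rich motif. In muscle they work together with the myogenic basic helix-loop-helix factors, the family of Myf6 (also MRF4), which bind E-boxes. Class IIa histone deacetylases hold MEF2 proteins in a repressed state, and MAP kinase and calcium signals relieve it. Mef2a and Mef2d are expressed in many tissues, whereas Mef2c is best known for its roles in heart, muscle, neurons and vessels.

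The motif content of the known start sites can be shown, although it was read from RefSeq promoters of build GRCm38.p6 (250 bases before to 50 after a start) and could not be placed against the GRCm39 peaks. The table held 1 promoter for Mef2a, 3 for Mef2c and 1 for Mef2d. CANNTG, the general E-box, was searched on both strands and stood in 72.3% of all 32851 promoters, but in none of the Mef2a and Mef2d promoters and in 2 of the 3 Mef2c promoters. CAGCTG, the E-box variant typical of myogenic factors and a special case of CANNTG, stood in 16.3% of all promoters and in none of these. The MEF2 motif, which MEF2 proteins themselves bind, was found in 3.19% of all promoters and in the Mef2a promoter, where it runs from 2 bases before the start to the eighth base after it. Each of these stretches of 30 bases carries a MEF2 motif or a general E-box. The motif is in capitals, and the stretch reads along the gene's strand.
Mef2a, MEF2 motif: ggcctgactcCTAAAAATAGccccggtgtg
Mef2c, E-box 234 bases before the first start listed: cctgaaatgaagCAAGTGtgtgctatgttt
Mef2c, E-box 100 bases before the first start listed: aactttttatacCATATGaaagcaatttca
Mef2c, E-box 245 bases before the third start listed: aatgcCAGATGgtgattgaaggggctcctt
A match is a run of letters and not a measured binding site.

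Depth, recovered from each list as the mean number of fragments per 10 kb, came to 42.4 and 30.6 for +Myf6 HA (replicates 1 and 2), 61.9 and 40.9 for +Myf6+F/R/C HA, and 30.6 and 23.7 in the uninduced HA libraries. It was 8.25 to 22.7 in the 6 IgG libraries and 54.3 in the H3K27me3 library. A summit pileup is the number of fragments over the highest point of a peak, recovered from the authors' deposited fold and p-value. Fold enrichments are the authors' and compare a summit with its own library's surroundings. Fragments per 10 kb around a summit were recovered from the expected pileup and include the peak's own fragments.

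All 3 loci held more peaks in the HA lists of induced cells than in the control lists, and IgG lists were almost empty there. The control lists were also short over the whole genome, with 437 to 1724 peaks per IgG list and 2179 and 4230 in the uninduced HA lists. The induced HA lists held 28436 to 38454 peaks each, so few control peaks are not particular to these loci. At Mef2a there were 6 and 5 HA peaks with +Myf6 and 9 and 5 with +Myf6+F/R/C, against 2 and 1 in the uninduced HA lists and 0 in each of the 6 IgG lists. At Mef2c the counts were 6 and 13 with +Myf6 and 7 and 8 with +Myf6+F/R/C, against 0 in both uninduced HA lists and a single IgG peak, in +Myf6 replicate 2. At Mef2d they were 3 and 3, then 6 and 4, with 0 in all 8 control lists. In the lists as deposited, every induced HA list lay above every control list at each locus. The closest match in depth was +Myf6 replicate 2 with uninduced replicate 1, both at 30.6 fragments per 10 kb, where the counts were 5 against 2 at Mef2a, 13 against 0 at Mef2c and 3 against 0 at Mef2d.

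**Figure D1:**
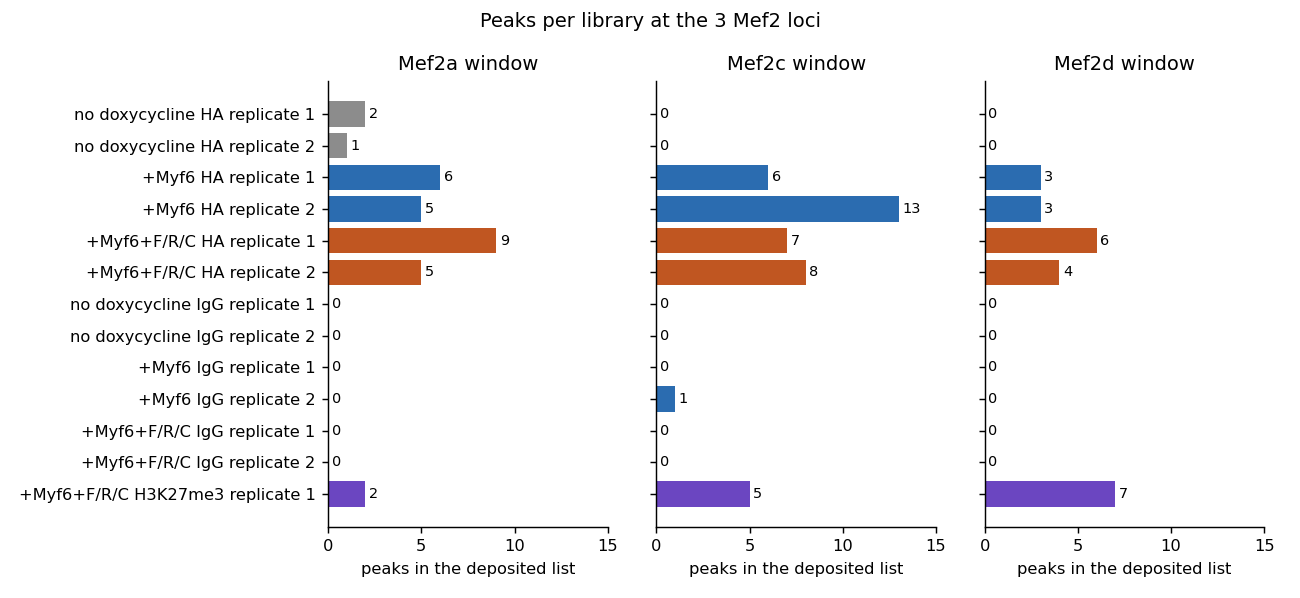
Number of deposited peaks (x axis) in each of the 13 libraries (y axis) at the Mef2a, Mef2c and Mef2d windows, coloured by treatment with H3K27me3 in purple. The 4 induced HA libraries hold 5 to 9, 6 to 13 and 3 to 6 peaks, and the 8 HA and IgG control libraries 0 to 2, 0 to 1 and 0.

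Pooled over both induced treatments, the mean was 6.25 ± 1.89 peaks (SD, n = 4) at Mef2a against 0.375 ± 0.744 (n = 8) in the controls (exact permutation p = 0.0020, two-sided, the smallest possible). The means were 8.5 ± 3.11 against 0.125 ± 0.354 at Mef2c, and 4.0 ± 1.41 against 0 at Mef2d, with the same exact permutation p of 0.0020 at n = 4 and 8. These are 3 tests, and adjusted over all genome tiles of each window's length by Benjamini-Hochberg they gave 0.0041, 0.0039 and 0.0057. Such a difference is common in this genome: of all tiles of 243, 266 and 130 kb, 61.8%, 63.5% and 50.3% passed 0.05 in the same direction. Kept as pairs from the same nuclei, 4 HA and 4 IgG libraries cannot go below p = 0.125 in an exact sign-flip test, and that was the value at each locus. With the induced lists scaled down to the depth of their own IgG library, the differences in mean peak count shrank to 2.13, 1.88 and 0.75 peaks (exact permutation p = 0.0061, 0.034 and 0.018, n = 4 and 8). The scaled lists, +Myf6 replicates 1 and 2 and then +Myf6+F/R/C replicates 1 and 2, held 2, 3, 3 and 2 peaks at Mef2a. They held 1, 5, 2 and 0 at Mef2c, and 0, 1, 1 and 1 at Mef2d. After this scaling not every induced list lay above every control list.

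The loci were fuller than most tiles of their length but not at the extreme. Tiles were laid over whole chromosomes without regard to genes, and windows around other genes were not compared. At least as many induced HA peaks as at Mef2a were found in 18.5% of 10956 tiles, where the mean was 3.06 per list. For Mef2c the share was 10.1% of 10012 tiles (mean 3.35), and for Mef2d 14.1% of 20462 tiles (mean 1.64). Mef2c thus had the most peaks of the 3 for a stretch of its length, although 8 of its regions came from +Myf6 replicate 2 alone.

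**Figure D2:**
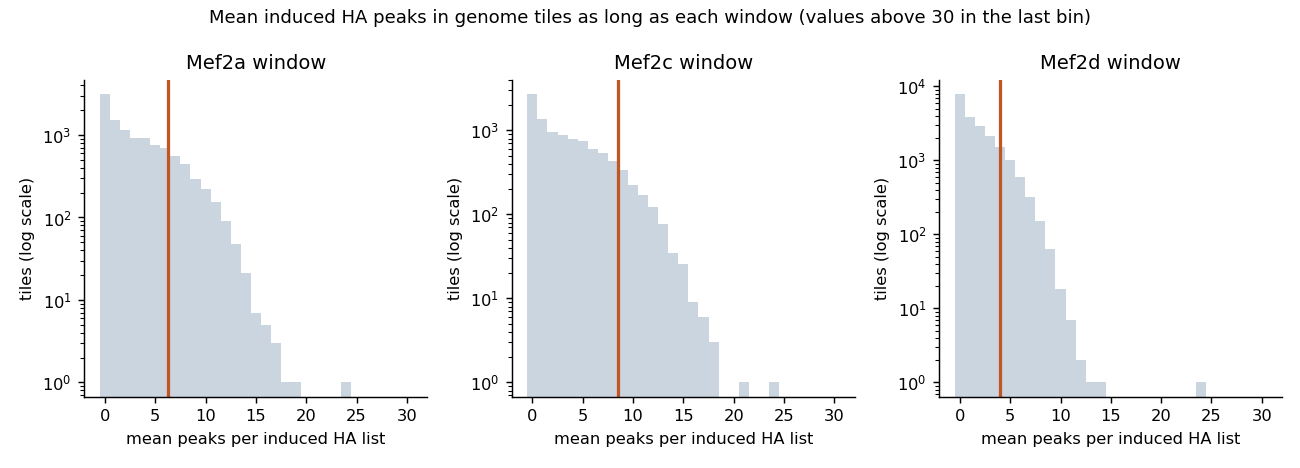
Distribution of the mean number of peaks per induced HA list (x axis) over genome tiles as long as each window (y axis, number of tiles on a log scale), with the window itself as a vertical line. The lines stand at 6.25, 8.5 and 4.0 peaks, right of the tile means of 3.06, 3.35 and 1.64.

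Of the 43 regions, 25 (58.1%) had a peak in just 1 induced list, against 50.7% of all merged regions. A peak in all 4 induced lists was found in 7 (16.3%), against 14.8%. Taking as a site a region found in both HA lists of a treatment and in none of the 8 control lists, +Myf6 had 8 sites (18.6% of the 43, against 17.5% of all regions) and +Myf6+F/R/C had 10 (23.3%, against 21.0%). By locus the sites were 2, 4 and 2 with +Myf6 and 4, 4 and 2 with +Myf6+F/R/C at Mef2a, Mef2c and Mef2d. These shares are close to those of the genome. With summits within 250 bp in place of overlapping intervals, both treatments had 9 sites.

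The strongest HA region of the 3 loci was chr7:67034728-67035919 in the Mef2a window. Its summit pileup was 46 and 30 fragments in +Myf6 replicates 1 and 2, 79 and 48 in +Myf6+F/R/C replicates 1 and 2, and none of the 8 control lists had a peak there. All 4 induced libraries were thus high and the controls without a call. The authors' folds were 8.66, 8.59, 8.16 and 7.26 in the same order, and in each list the peak scored above at least 99.1% of the others by p-value. By its mean percentile it was ranked 9 of 12587 +Myf6 sites and 10 of 15089 +Myf6+F/R/C sites, and 85 of the 10625 regions found in all 4 induced lists. Its 4 summits fell within 21 bp of each other, a spread reached by 2.73% of those 10625 regions (median 210 bp). The 10 kb around the summit, the peak included, held 6.48 and 5.30 times the library's mean fragments in +Myf6. In +Myf6+F/R/C it held 8.67 and 8.16 times. How much of this the peak itself supplies was not measured.

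Further HA regions of the Mef2a window lay close to this one. At chr7:67040343-67040899, whose summits were on average 5.41 kb away, pileups were 18 and 11 fragments in +Myf6 and 30 and 24 in +Myf6+F/R/C, with authors' folds of 5.34, 5.28, 5.30 and 5.98. This region also carried a peak of 7 fragments (fold 5.22) in uninduced HA replicate 1, which had no induced Myf6, so it was not counted as a site. A further 24.1 kb on, chr7:67064371-67065005 had 15 and 8 fragments in +Myf6 and 24 and 19 in +Myf6+F/R/C (folds 7.82, 5.88, 7.19 and 7.59) and no control peak. These 3 were the regions of Mef2a with a peak in all 4 induced lists, and 14.0% of the tiles of this length had as many or more.

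Elsewhere in the Mef2a window signal was weaker. Regions at chr7:66954804-66955068 and chr7:67071254-67071800 were called with the compounds, in both lists, but in no +Myf6 list, with pileups of 7 and 6 and of 16 and 10 fragments. The former ranked 15053 of 15089 +Myf6+F/R/C sites, near the calling limit. At chr7:66904139-66904801 both uninduced HA lists had a peak, of 6 and 8 fragments, and of the induced lists only +Myf6 replicate 2 did, with 6 fragments. That peak was therefore no larger after induction than before. Among all merged regions 7.29% had an uninduced HA peak and 4.39% an IgG peak, and here 2 of 43 had the former, both at Mef2a, and 1 of 43 the latter.

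**Figure D3:**
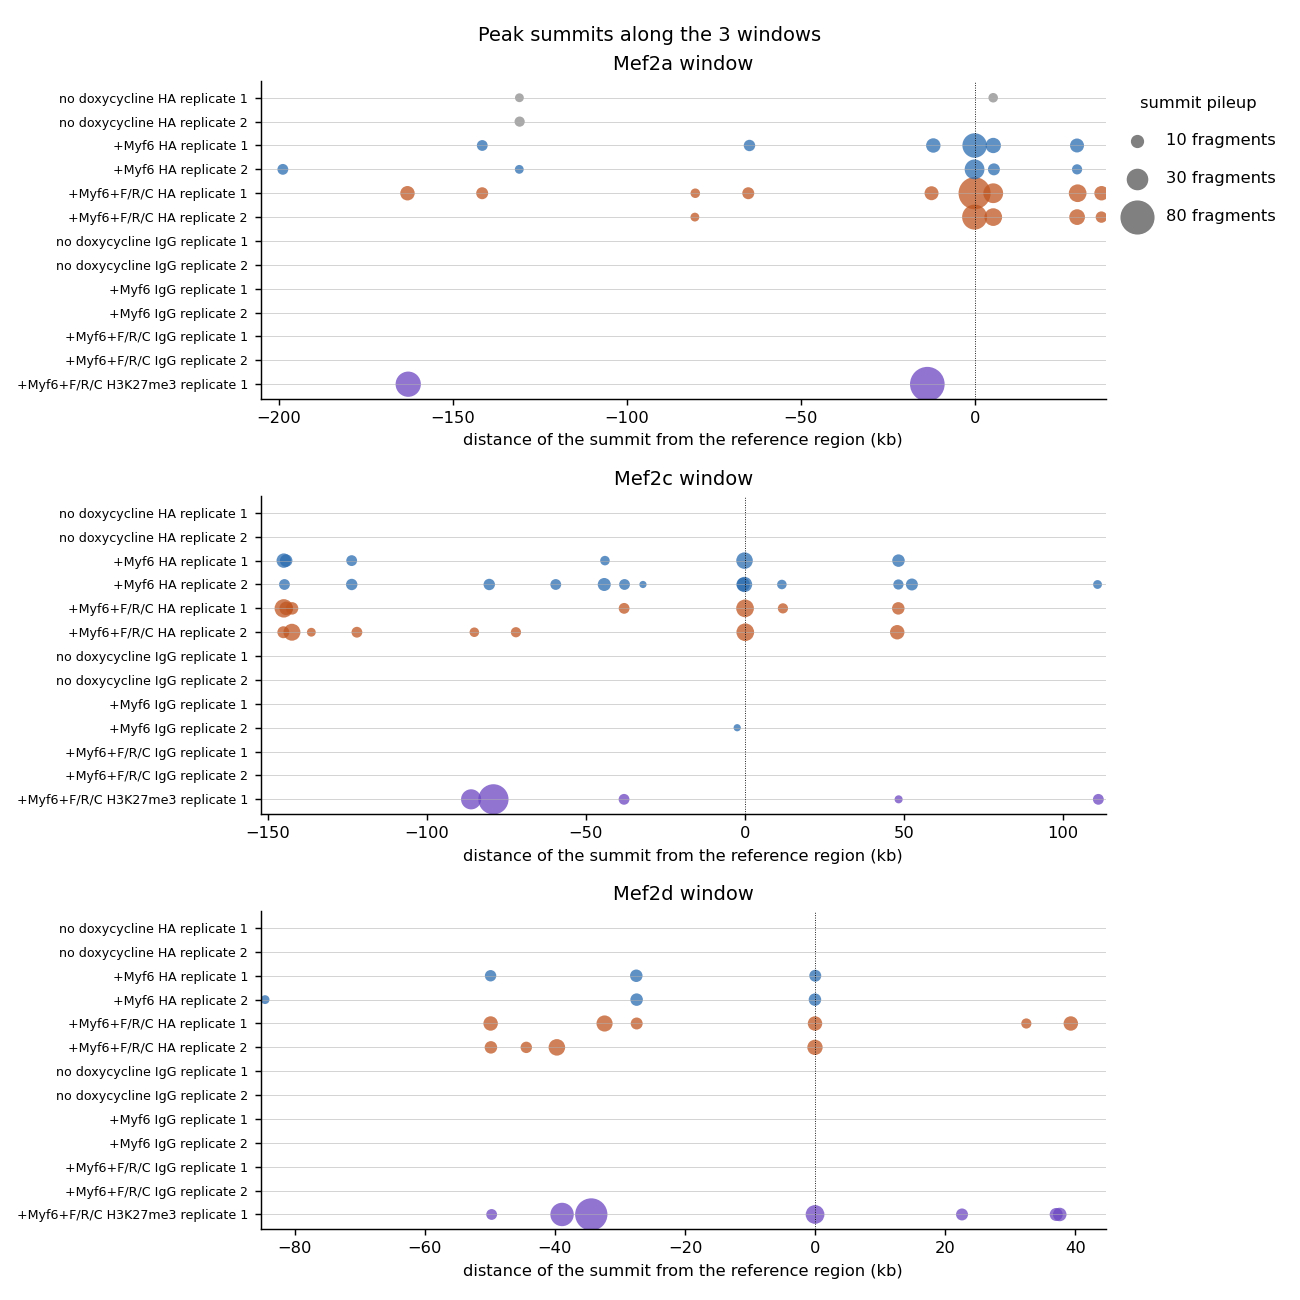
Peak summits along each window, as distance in kb from the mean summit of the region with the best mean percentile (x axis) in each library (y axis), with marker area proportional to the summit pileup in fragments. At Mef2a the large HA markers gather between 0 and about 30 kb, at Mef2c they spread over the window, and IgG rows are empty but for 1 small marker at Mef2c.

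Of the 22 Mef2c regions 14 were in 1 induced list and 3 in all 4, and 15.8% of the tiles of this length had as many or more of the latter. The best was chr13:83752112-83752853, with 21 and 18 fragments in +Myf6 and 24 and 24 in +Myf6+F/R/C (authors' folds 7.11, 6.78, 6.20 and 5.72). All 4 induced libraries called it and no control did. It was ranked 650 of 12587 +Myf6 sites and 1675 of 15089 +Myf6+F/R/C sites. The single IgG peak of the loci, in +Myf6 replicate 2 at chr13:83749946-83750107, had 4 fragments, a fold of 3.78 and no HA peak over it.

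The other Mef2c regions in all 4 induced lists were moderate. At chr13:83607109-83607561 pileups were 16 and 9 fragments in +Myf6 and 26 and 11 in +Myf6+F/R/C, so replicate 1 was higher in both treatments. At chr13:83799922-83801018 they were 12 and 8, then 12 and 16, and the summits were spread over 402 bp, wider than in most regions of this kind. The 3 regions lay 145.1 and 48.2 kb apart, which contrasts with the close spacing at Mef2a. One-sided regions were chr13:83609512-83610111, called with the compounds (12 and 22 fragments) but in no +Myf6 list, and chr13:83628262-83628854, called in both +Myf6 lists (9 and 10 fragments) and in neither +Myf6+F/R/C list. Of the 14 Mef2c regions in 1 induced list, 8 were in +Myf6 replicate 2, 4 in +Myf6+F/R/C replicate 2 and 1 in each replicate 1.

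Mef2d had 1 region in all 4 induced lists, chr3:88085164-88085558, and 32.1% of the tiles of this length had at least 1. Its pileups were 11 and 12 fragments in +Myf6 and 16 and 18 in +Myf6+F/R/C, with authors' folds of 4.84, 6.56, 5.82 and 7.72 and no control peak. The summits agreed to within 49 bp. Next came chr3:88034908-88035753, called in 2 lists with the compounds (16 and 12 fragments) and in +Myf6 replicate 1 (10 fragments), and chr3:88057742-88058082, found in both +Myf6 lists (12 and 12 fragments) and in +Myf6+F/R/C replicate 1 (11 fragments). The remaining 6 regions were in 1 list each. Over the 3 loci, 3 of 43 regions were called in both +Myf6+F/R/C lists only (3.91% of all regions) and 1 in both +Myf6 lists only (2.24%), none of them at Mef2d.

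Adding the 3 compounds did not change the number of peaks beyond the spread between replicates at Mef2a or Mef2c. The mean was 5.5 without and 7.0 with the compounds at Mef2a, and 9.5 and 7.5 at Mef2c (exact permutation p = 1.0 for both, n = 2 each). At Mef2d both +Myf6+F/R/C lists lay above both +Myf6 lists, with means of 5.0 and 3.0 (exact permutation p = 0.333, the smallest that n = 2 each allows). Depths were unequal, and +Myf6+F/R/C replicate 1 was the deepest of the 4 at 61.9 fragments per 10 kb. At 40.9, +Myf6+F/R/C replicate 2 lay between the +Myf6 libraries at 42.4 and 30.6. Scaled to the shallowest induced library, the +Myf6 lists held 6 and 5 peaks at Mef2a and the +Myf6+F/R/C lists 6 and 4, with 6 and 13 against 5 and 8 at Mef2c and 3 and 3 against 5 and 4 at Mef2d.

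To compare strength, each summit pileup was divided by its library's mean fragments per 10 kb. At the Mef2a region chr7:67034728-67035919 this scaled pileup was 1.08 and 0.982 in +Myf6 and 1.28 and 1.17 in +Myf6+F/R/C. The second and the third Mef2a regions had 0.424 and 0.360 against 0.484 and 0.586, and 0.354 and 0.262 against 0.387 and 0.464. At all 3 Mef2a regions both libraries with the compounds lay above both without them. This was so for 13.9% of the 10625 regions with a peak in all 4 lists, and the opposite for 22.1%. The log2 differences were 0.25 ± 0.24, 0.45 ± 0.33 and 0.48 ± 0.38 (SE, limma), and with p-values adjusted over all 10625 regions none passed (limma adjusted p = 0.905, 0.830 and 0.841). Fragments in the 10 kb around the summit, over the library's mean, were also higher with the compounds at all 3 regions. They were 6.48 and 5.30 in +Myf6 against 8.67 and 8.16 in +Myf6+F/R/C at the first region. The values were 3.75 and 2.58 against 4.78 and 4.52 at the second region and 1.53 and 1.08 against 2.44 and 2.32 at the third. These counts include the peak's own fragments, so they are not independent of the summit. The authors' folds, which are relative to the surroundings, overlapped between treatments at the second and the third regions and were lower with the compounds at the first. What the higher 10 kb counts and the unequal depths of the libraries contribute was not tested.

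**Figure D4:**
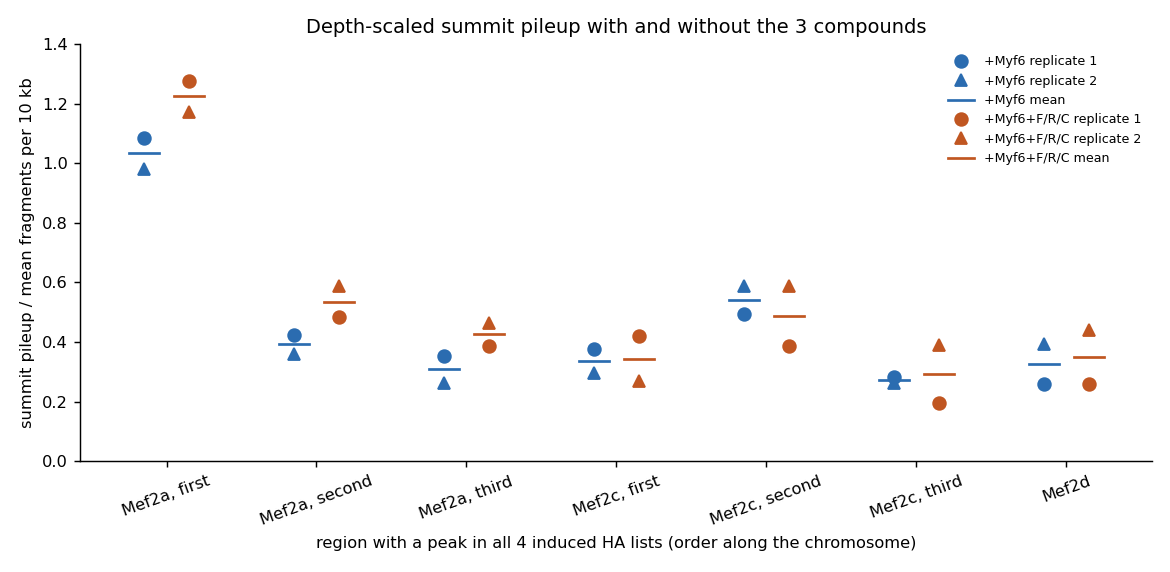
Summit pileup divided by the library's mean fragments per 10 kb (y axis) at the 7 regions with a peak in all 4 induced HA lists (x axis), with circles for replicate 1, triangles for replicate 2 and bars for the means of 2 libraries. Both +Myf6+F/R/C values lie above both +Myf6 values at the 3 Mef2a regions and overlap them at Mef2c and Mef2d.

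At Mef2c and Mef2d the scaled pileups of the treatments overlapped. The strongest Mef2c region had 0.495 and 0.589 in +Myf6 and 0.387 and 0.586 in +Myf6+F/R/C, a log2 difference of -0.18 ± 0.32 (SE; limma adjusted p = 0.961). The log2 differences of the first and the third Mef2c regions along the chromosome were 0.011 ± 0.39 and 0.016 ± 0.42, and that of the Mef2d region was 0.079 ± 0.40 (limma adjusted p = 0.998, 0.996 and 0.990). These errors leave room for differences of either sign. Across all 10625 regions limma called 0 (0.0%) at an adjusted p under 0.05, with 763 at an unadjusted p under 0.05, and the median log2 difference was -0.078. Without +Myf6 replicate 1 it called 6 regions and without +Myf6 replicate 2 it called 3, none of them at the Mef2 loci. Between the Mef2a regions and the others, differences were not tested against each other.

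**Figure D5:**
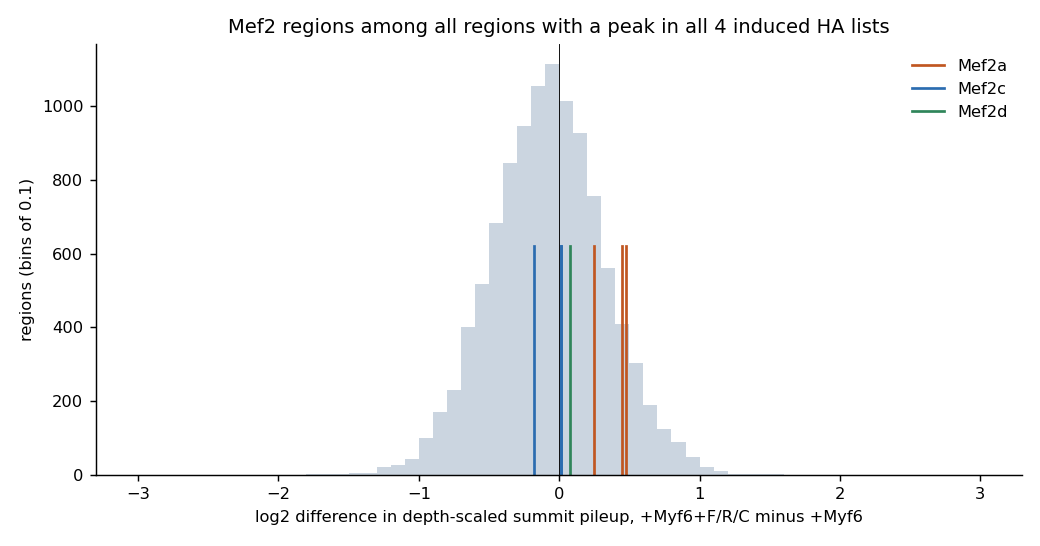
Distribution over 10625 regions (y axis, number of regions) of the log2 difference in depth-scaled summit pileup, +Myf6+F/R/C minus +Myf6 (x axis), with vertical lines for the 7 Mef2 regions coloured by gene. The Mef2a lines stand at 0.25, 0.45 and 0.48, right of the median of -0.078, and the others between -0.18 and 0.079.

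H3K27me3 was measured in +Myf6+F/R/C cells only, in 1 library. Its list held 2 peaks at Mef2a, 5 at Mef2c and 7 at Mef2d. As many or more were found in 48.5%, 28.1% and 5.23% of tiles of these lengths, so Mef2d was the richest for its size. The widest peak of each locus was chr7:67019896-67022247 at Mef2a (2352 bp, summit pileup 92 fragments, fold 3.54), chr13:83671877-83674277 at Mef2c (2401 bp, 70 fragments, fold 4.90) and chr3:88049802-88051784 at Mef2d (1983 bp, 80 fragments, fold 3.5). The median width in this list was 551 bp, and 5.81% of its peaks were at least 2 kb wide. In the 10 kb around the 3 widest peaks, the peak included, fragments were 28.2, 15.1 and 24.7 times the library's mean. The folds are relative to these counts.

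An HA region met 1 of the 2 H3K27me3 peaks at Mef2a, 4 of the 5 at Mef2c and 2 of the 7 at Mef2d. The widest Mef2a peak was 519 bp from the nearest HA region and 12.5 kb from the nearest region in all 4 induced lists, the strong chr7:67034728-67035919, which had no H3K27me3 peak. The widest Mef2d peak lay 778 bp from the nearest HA region, and the widest Mef2c peak overlapped an HA region called in +Myf6 replicate 2 alone. Of the 43 regions 7 (16.3%) overlapped an H3K27me3 peak, 1 at Mef2a, 4 at Mef2c and 2 at Mef2d, against 26.1% of all merged regions. Among regions in all 4 induced lists the count was 2 of 7, against 40.0%. One was the Mef2d region chr3:88085164-88085558, inside an H3K27me3 peak of 826 bp with 27 fragments and a fold of 8.59. The other was chr13:83799922-83801018 at Mef2c, which met an H3K27me3 peak of 165 bp and 5 fragments, weaker than all but 0.149% of that list. With so few regions, these counts describe the loci and were not tested.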

How the data were processed

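The data were 13 lists of narrow peaks, 1 per library and not pooled, with positions in GRCm39. Per the submitters' processing notes MACS2, deepTools and DiffBind were used (no versions or aligner: not given in the sources used here). The authors deposited, for each peak, the summit's fold enrichment (a ratio, against the library's own surroundings), −log10 p-values and q-values, a score (the −log10 q times 10, rounded down) and the summit's position. Peaks on chromosomes 1 to 19, X and Y were used. The pileup at a summit (k, a whole number) and the pileup expected there (λ) were solved from fold = (k + 1)/(λ + 1) and the Poisson tail, and gave back the authors' −log10 p with an error of at most 0.002 for over 99.9% of peaks in every list. The lowest λ and the narrowest peak give the mean fragments per 10 kb.

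Peak counts were compared by exact permutation over libraries (two-sided, absolute difference of means) in Python 3.11.15, and depth-scaled log2 pileups by limma 3.58.1 (R 4.3.3, eBayes with trend) over every region with a peak in all 4 induced HA lists, adjusted by Benjamini-Hochberg. No pseudocount was needed. In the alternatives with scaled depth, pileup and background were multiplied by the ratio of depths and kept if the new −log10 p reached the lowest of the shallower list. Pileup recovery, the exact permutation test and the limma fit were checked on simulated data. HA and IgG of one replicate were divided from the same nuclei, per the labels, and form the pairs of the sign-flip test. The genome tiles, chosen after seeing the data in place of gene windows, were laid end to end between the first and last peak of each chromosome. Described singly are the regions in all 4 induced lists (up to 5 per window, by mean percentile of −log10 p), those with a control peak and those in both lists of just 1 induced treatment; others named were chosen after their values were seen. The annotation used here was of GRCm38.p6, so peaks were not placed against exons, introns or start sites, and motifs at summits, other genes of the pathway, the genes most like these and a count over gene bodies, all planned, were not run. The windows may also hold neighbouring genes: in the RefSeq order Lysmd4 and Lrrc28 flank Mef2a, Cetn3 and Tmem161b flank Mef2c, and Iqgap3 and Rhbg flank Mef2d. The members and lists were chosen with earlier results of these data known.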

Additional observations from a re-analysis of the deposited data

How the results depend on the processing

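The excess of induced HA over control peaks kept its direction at all 3 loci under every alternative run. Without any 1 induced HA library the difference in mean count was 4.96 to 6.29 at Mef2a, 6.88 to 9.21 at Mef2c and 3.33 to 4.33 at Mef2d. It no longer passed 0.05 where too few libraries were left for it to do so: with the replicate block of HA and IgG pairs it was 6.25, 8.25 and 4.0 peaks (exact sign flips, p = 0.125), and against the 2 uninduced HA lists alone, chosen after seeing the data, 4.75, 8.5 and 4.0 (exact permutation p = 0.0667, n = 4 and 2). At −log10 q of at least 5 it was 3.5, 3.5 and 1.75, and at 10 or more 1.75, 1.0 and 0.25 peaks, where Mef2d did not pass (exact permutation p = 0.333, n = 4 and 8). Sites fell from 8 to 2 for +Myf6 and from 10 to 6 for +Myf6+F/R/C with −log10 q of at least 5 in the induced lists, so weak peaks make up much of both counts. With summits within 250 bp both had 9, and with only the IgG lists as controls 9 and 11.

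In the comparison of treatments, limma called 234 of 10625 regions with replicate number as a block (77 higher and 157 lower with the compounds) and 0 without it, and 0 to 6 without any 1 library (6 without +Myf6 replicate 1 and 3 without replicate 2). Libraries with the same replicate number share a name prefix between these treatments, but the labels do not say what it marks. Uninduced replicate 1 does not share it, and the H3K27me3 library, labelled replicate 1, has the prefix of replicate 2. Replicate differences correlated with r = 0.33 across regions, which are not independent. None of the 7 Mef2 regions was called under an alternative that tested it; with −log10 q of at least 5 in all 4 lists only 2 of them, the strongest of Mef2a and of Mef2c, were tested. Leaving out a library, the log2 differences stayed positive at the 3 Mef2a regions (0.17 to 0.32, 0.31 to 0.59 and 0.26 to 0.70). They changed sign at the others, from -0.31 to 0.33, from -0.48 to 0.12 and from -0.49 to 0.52 at Mef2c and from -0.30 to 0.46 at Mef2d. The counts over gene bodies were not run.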
